A study of Drosophila melanogaster with 10 samples.

Results

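Whole male Drosophila melanogaster larvae of the third instar that carried atf3[76] together with 1 copy of atf3[A] were compared with y w larvae across all genes. The first genotype is written y w, atf3[76];;atf3[A]/+ on the labels and atf3[A]/+ below, and the control is the y w stock, whose markers yellow and white all genotypes of the series share. The comparison rests on 2 libraries of each genotype, 4 of the 10 in the series, and covers 13994 genes. The 4 libraries were taken by genotype, but the comparison and the gene lists were chosen with earlier results of these data known. The other libraries are 2 each of atf3[76] alone and of atf3[76] with 1 copy of dfoxo[25J13] or of rel[E20]. They are used for side-by-side values and for a direct contrast with atf3[76]. The labels give neither the lesion of atf3[76] nor the nature of atf3[A], which their notation places on chromosome 3. How many larvae a library holds is not stated. The design text names the 2 libraries per genotype as biological replicates and is silent on separate cultures, so p-values measure the spread between these samples only.

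ATF3 is a transcription factor of the basic leucine zipper class, which binds DNA as a dimer, and it is known as a stress-responsive regulator in animals. In Drosophila it acts in larvae at the border of metabolism, gut function and innate immunity. The fly meets microbes with lysozymes, which cut bacterial cell walls and are made mainly by the gut, with peptidoglycan recognition proteins (PGRPs), and with small peptides that the fat body and epithelia secrete under the Toll and Imd pathways. The series asks how each mutant genotype differs from y w, and its title names immune and metabolic homeostasis. The comparison shows what differs from y w when atf3[A] is present. By itself it cannot tell a difference that remains from one that is new.

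Values are FPKM, that is fragments scaled to transcript length and library size, with 1 as the lowest value deposited. A value of 1 is thus a floor and not a measured level, so genes above 1 in all 4 libraries, 9108 in number, were kept apart from 1960 genes at 1 in 1 to 3 libraries and from 2926 at 1 in all 4. One library, y w replicate 1, stood apart in this respect. In it, 405 genes were at 1 in that library alone, 95 of them with at least 10 FPKM in each of the other 3, against 6 such genes for y w replicate 2, 1 for atf3[A]/+ replicate 1 and 9 for atf3[A]/+ replicate 2. Relative depth, taken from the step between values of short small nucleolar RNA (snoRNA) genes, was 0.515 in y w replicate 1 and between 0.995 and 1.02 in the other 3 libraries. The 50 most abundant genes held 39.3% and 33.0% of all FPKM in y w, and 28.9% and 30.3% in atf3[A]/+. Over the 9108 genes, Pearson's r of log2 values was 0.949 between the y w libraries, 0.962 between the atf3[A]/+ libraries, and 0.914 to 0.956 across the genotypes. The part of these library differences in the results below was not tested.

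Atf3 itself, listed as A3-3 on the X chromosome (1136772 to 1168682, dm3), was at 3.28 and 4.14 FPKM in y w against 9.51 and 12.8 FPKM in atf3[A]/+. It stood at 6.09 and 13.7 FPKM in atf3[76], so atf3[76] did not lower the measured transcript below y w. The log2 difference between atf3[A]/+ and y w was 1.36 ± 0.38 (SE) with an adjusted p of 0.0239 among genes above the floor. It lost that call without y w replicate 1 (1.23, adjusted p = 0.233), without atf3[A]/+ replicate 1 (1.56, adjusted p = 0.21) and without atf3[A]/+ replicate 2 (1.16, adjusted p = 0.382). The direct contrast of atf3[A]/+ with atf3[76] gave 0.24 on the log2 scale (adjusted p = 0.846). Because the lesion is not given, these values do not check the mutant label.

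The marker genes white and yellow were read beside the stock labels. The eye-pigment transporter gene w was listed at 1 in each y w library, against 33.7 and 26.3 FPKM in atf3[A]/+. Its adjusted p of 0.0133 over all genes tested holds no spread within y w, whose values are the floor. The gene w was at 1 in each of the 6 libraries of the other genotypes too. In this series w was thus above the floor only in the 2 atf3[A]/+ libraries. The labels do not say whether atf3[A] carries a w marker. The cuticle-pigment gene y was at 1 in all 4 libraries, which does not check the stock, since no genotype of the series lacks the yellow marker. The gene foxo, whose forkhead product is restrained when insulin signalling is active, was at 1 and 7.64 FPKM in y w against 9.56 and 9.35 FPKM in atf3[A]/+ (adjusted p = 0.731). Rel, the NF-kB factor of the Imd pathway, was at 14.2 and 10.3 FPKM in y w against 19.2 and 15.7 FPKM in atf3[A]/+ (adjusted p = 0.877).

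Among genes above 1 in all 4 libraries, 170 of 9108 (1.87%) passed an adjusted p of 0.05, with 87 higher in atf3[A]/+ (0.955%) and 83 lower (0.911%). The lysozymes LysD, LysE and LysB led the lower side, and the immune-induced peptides IM1 and IM3 led the higher side. The lower side also held P450 and glutathione transferase genes, digestive serine proteases and cuticle genes, and the higher side held Turandot stress peptides, amylases and salivary glue genes. In 156 of the 170 genes the 2 genotypes did not overlap, while 35.9% of all 9108 genes did not overlap either, 16.0% higher and 19.9% lower. In the remaining 14 genes, 7 in each direction, the libraries of the genotypes overlapped.

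**Figure D1:**
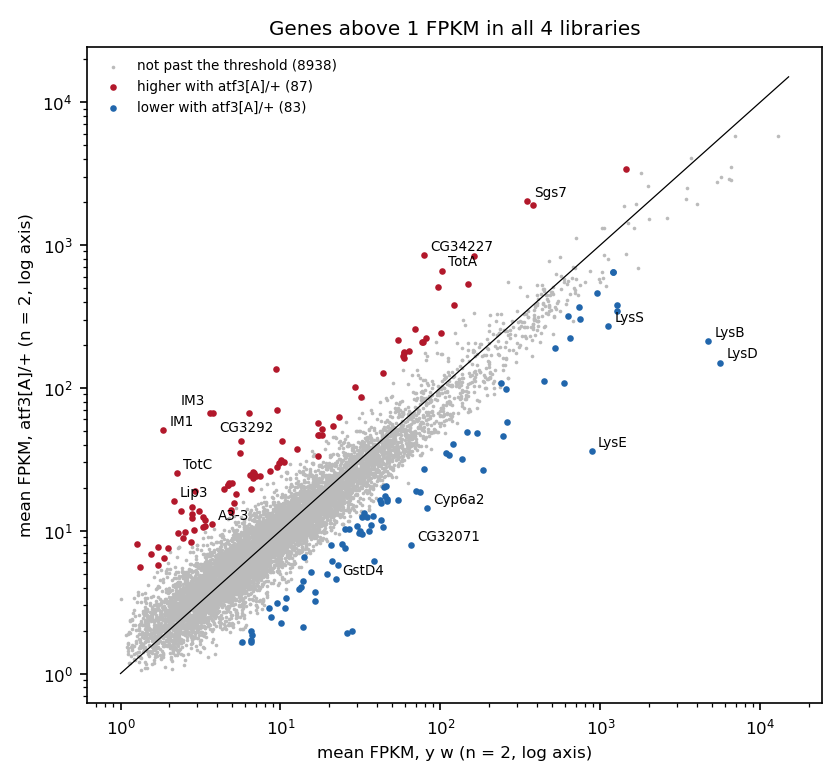
Mean FPKM of each gene above 1 in all 4 libraries, y w on the horizontal axis and atf3[A]/+ on the vertical axis, both logarithmic, n = 2 libraries each, with the line of equal values. Red points mark the 87 genes called higher and blue points the 83 called lower; LysB, LysD and LysE lie far below the line, and IM1 and IM3 far above it.

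The number of calls differed widely between settings. In the fit above limma estimated infinite prior degrees of freedom, so all genes received the same SE of 0.38 on the log2 scale and a gene's own replicate spread played no part. With the prior variance following an intensity trend 211 genes passed, and with a robust prior 167. With each library shifted to the same median, 11 genes passed (0.121%), and with all 5 genotypes in 1 model 10 passed (0.11%). The 11 genes were LysB, LysD, LysE, IM1, IM3, TotC, CG3292, CG34227, Lip3, Cyp6a23 and CG32071, and all of them were among the 170. LysB, LysD, LysE, Cyp6a23 and CG3292 passed in all 3 fits. Without atf3[A]/+ replicate 1 the count was 42, and without any 1 of the other libraries it lay between 143 and 166. In each fit with 1 library left out limma again estimated infinite prior degrees of freedom. A call kept there thus rests on the size of the difference, not on the gene's own spread. Leaving out a library also moved the median log2 difference of all 9108 genes, to between -0.18 and 0.15, and list medians below are to be read against that shift.

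**Figure D2:**
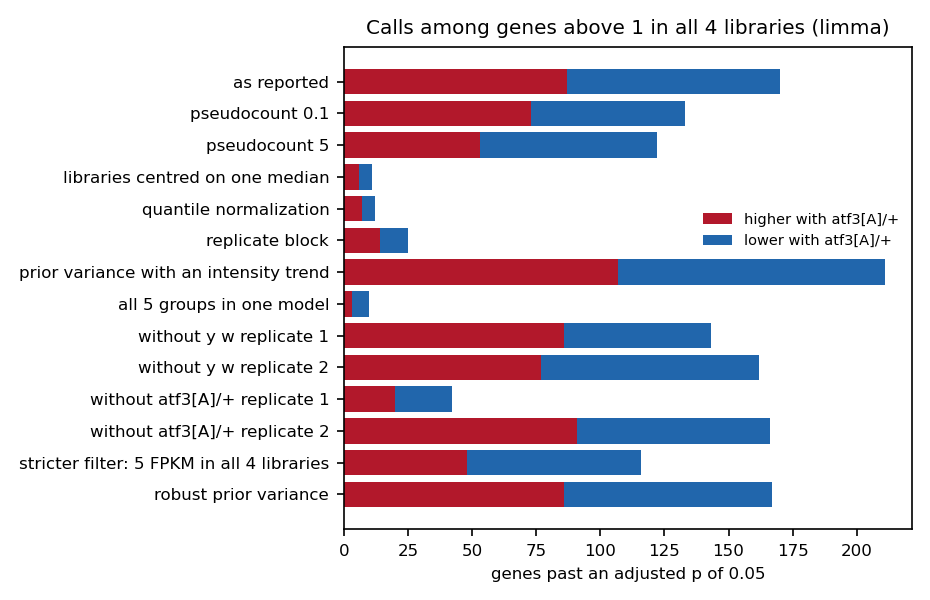
Number of genes above 1 in all 4 libraries that passed an adjusted p of 0.05 in limma, on the horizontal axis, for each setting on the vertical axis. Red shows genes higher and blue genes lower in atf3[A]/+; the count was 170 as reported, 11 with libraries centred, 10 with all 5 genotypes in 1 model and 42 without atf3[A]/+ replicate 1.

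A second fit tested 11068 genes above 1 in at least 1 of the 4 libraries, floor values included. It called 41 genes (0.37%), with 34 higher (0.307%) and 7 lower (0.0632%). Of the 41, 28 were at 1 in both y w libraries, 4 were at 1 in both atf3[A]/+ libraries, and 6 were above 1 in all 4: LysB, LysD and LysE lower, and IM3, TotC and CG3292 higher. Drs, IM10 and snRNA:U4:39B, the last 3, were at 1 in y w in 1 library only. Where both libraries of a genotype were at 1, the adjusted p holds no spread within that genotype. Without any 1 of the 4 libraries this fit called 0 genes, against 457 to 1079 genes at an unadjusted p under 0.05 and 852 with all 4.

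Lysozyme genes held the largest difference among genes above 1 in all 4 libraries. All 4 lysozyme genes above the floor fell, with a median log2 difference of -4.52 beside -0.03 over all 9108 genes. LysD (chromosome arm 3L, 1210716 to 1211196) was at 5482 and 5715 FPKM in y w against 172 and 128 FPKM in atf3[A]/+, a mean 37.4-fold higher in y w. Its log2 difference was -5.23 ± 0.38 (adjusted p = 3.6e-38 above the floor, 0.00363 with libraries centred and 1.73e-05 with all 5 genotypes).

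LysB (3L, 1207370 to 1207868) was at 4954 and 4483 FPKM in y w against 212 and 211 FPKM in atf3[A]/+, a mean 22.3-fold higher in y w. LysE (3L, 1212826 to 1213406) was at 770 and 989 FPKM in y w against 39.0 and 33.1 FPKM in atf3[A]/+, a mean 24.4-fold higher in y w. For LysB, LysD and LysE the 2 libraries of each genotype lay close together, far from those of the other genotype. With 1 library left out, the median log2 difference of the 4 lysozyme genes above the floor lay between -4.58 and -4.46. LysC was at 1849 and 2213 FPKM in y w but at 32.7 and 1 FPKM in atf3[A]/+ and did not pass (adjusted p = 0.155 over all genes tested).

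In atf3[76] the same genes stood near the atf3[A]/+ values: 134 and 158 FPKM for LysD, 143 and 125 FPKM for LysB, and 25.4 and 29.2 FPKM for LysE. The direct contrast of atf3[A]/+ with atf3[76] gave log2 differences of 0.03 for LysD (adjusted p = 1.0), 0.66 for LysB (adjusted p = 0.527) and 0.39 for LysE (adjusted p = 0.652). In the genotype with dfoxo[25J13], LysD was at 4527 and 6054 FPKM, and in that with rel[E20] at 5496 and 6158 FPKM. LysS, a lysozyme expressed in the gut, was at 1710 and 522 FPKM in y w against 297 and 240 FPKM in atf3[A]/+. Its log2 difference of -1.82 (adjusted p = 0.000311) was -0.96 without y w replicate 1 (adjusted p = 0.625), and in atf3[76] it stood at 1350 and 600 FPKM.

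LysX was at 16.7 and 1 FPKM in y w against 22.1 and 12.6 FPKM in atf3[A]/+, and LysP was at or near 1 in all 4 libraries. LysB, LysC, LysD and LysE are near-identical neighbours whose reads may be shared between them. LysC, LysD, LysE and LysS also overlap another gene in position, so the split of reads among them is uncertain.

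Some immune peptides linked to the Toll pathway went the other way. IM1 and IM3, secreted peptides induced on infection, were called higher above the floor. They were 2 of the 14 measured genes of the Toll list there, with 0 called lower, beside 0.955% and 0.911% of all genes. Without overlap, 5 of the 14 were higher and 2 lower, beside 16.0% and 19.9% of all genes. IM1 was at 2.57 and 1.14 FPKM in y w against 69.4 and 31.2 FPKM in atf3[A]/+ (log2 difference 4.11, adjusted p = 2.52e-23, 0.0264 with libraries centred and 0.186 with all 5 genotypes). IM3 was at 5.18 and 2.09 FPKM in y w against 70.5 and 62.9 FPKM in atf3[A]/+ (log2 difference 3.95, adjusted p = 1.38e-21, 0.0212 with libraries centred and 0.0631 with all 5 genotypes). In both genes the atf3[A]/+ libraries lay far above the y w libraries. Both calls held without any 1 library, in fits where a gene's own spread played no part.

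IM4 was listed at 1 in each y w library, against 11.8 and 15.3 FPKM in atf3[A]/+. Its adjusted p of 0.0327 over all genes tested holds no spread within y w, whose values are the floor. IM10 was at 1.32 and 1 FPKM in y w against 24.4 and 20.6 FPKM in atf3[A]/+ (adjusted p = 0.0167). The Toll list of 25 genes found had a median log2 difference of 0.14 over the 14 above the floor, 10 of them above 0, but of -0.12 without y w replicate 2 and -0.06 without atf3[A]/+ replicate 1. In atf3[76], IM1 was at 40.4 and 70.1 FPKM, IM3 at 100 and 177 FPKM, IM4 at 9.11 and 21.5 FPKM, and IM10 at 51.8 and 28.1 FPKM. For these 4 genes the direct contrast of atf3[A]/+ with atf3[76] did not pass, with adjusted p between 0.674 and 1.0.

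Drs, which encodes the antifungal peptide drosomycin, was at 2.66 and 1 FPKM in y w against 186 and 77.6 FPKM in atf3[A]/+ (adjusted p = 0.0365 over all genes tested). The drosomycin-like gene dro2 was listed at 1 in each y w library, against 28.4 and 25.0 FPKM in atf3[A]/+. Its adjusted p of 0.0133 in that fit holds no spread within y w. In Drs and dro2 every atf3[A]/+ library was above every y w library. The atf3[76] libraries were again high, at 95.1 and 138 FPKM for Drs and 35.0 and 52.0 FPKM for dro2. The calls of w, Drs, dro2, IM4 and IM10 come from the fit over all genes tested, in which none passed without any 1 library (lowest adjusted p 0.245).

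Antibacterial peptides tied to the Imd pathway did not move together. AttA, an attacin, was at 4.01 and 2.59 FPKM in y w against 11.2 and 9.90 FPKM in atf3[A]/+ (log2 difference 1.45, adjusted p = 0.0115). DptB, a diptericin, was at 16.2 and 16.5 FPKM in y w against 1.3 and 6.14 FPKM in atf3[A]/+ (log2 difference -2.10, adjusted p = 1.06e-05). Neither call held in the centred fit (adjusted p = 0.146 and 0.334), and DptB lost it without atf3[A]/+ replicate 1 (-1.28, adjusted p = 0.64). AttA lost it without y w replicate 2 (1.21, adjusted p = 0.174), without atf3[A]/+ replicate 1 (1.36, adjusted p = 0.488) and without atf3[A]/+ replicate 2 (1.53, adjusted p = 0.0817).

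Of the 20 antimicrobial peptide genes, 10 were above the floor in all 4 libraries, with a median log2 difference of 0.58. There 1 was called higher and 1 lower, beside 0.955% and 0.911% of all genes. Metchnikowin, Mtk, was at 4.70 and 8.51 FPKM in y w against 15.7 and 9.91 FPKM in atf3[A]/+ (adjusted p = 0.398). The attacin AttB was at 7.10 and 5.68 FPKM in y w against 9.86 and 14.2 FPKM in atf3[A]/+ (adjusted p = 0.498), and AttD at 1.55 and 1.12 against 3.57 and 2.77 FPKM (adjusted p = 0.455). The genotypes overlapped in AttC (4.49 and 2.50 against 4.27 and 6.81 FPKM), Dro (12.2 and 2.61 against 9.65 and 9.30 FPKM) and Dpt (9.23 and 2.79 against 2.87 and 4.48 FPKM).

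Cecropin genes were low in both genotypes. CecA1 was at 1.90 and 3.54 FPKM in y w against 1.37 and 4.23 FPKM in atf3[A]/+, and CecC at 3.12 and 9.86 against 2.09 and 9.01 FPKM. CecB was at 1 and 2.04 against 1 and 1.85 FPKM, and CecA2 at 1 and 1 against 1.34 and 1 FPKM. Def, at 1.74 and 1.05 against 1.04 and 1 FPKM, and dro5, at 1 and 1.11 against 1 and 1 FPKM, were near the floor as well.

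Peptidoglycan recognition proteins gave 2 calls higher and 1 lower among the 18 measured Imd and PGRP genes above the floor. Of all genes, 0.955% were called higher and 0.911% lower. The 18 genes had a median log2 difference of 0.14. PGRP-SC2, an amidase that breaks down peptidoglycan in the gut, was at 90.8 and 47.4 FPKM in y w against 259 and 257 FPKM in atf3[A]/+ (log2 difference 1.96, adjusted p = 6.28e-05, 0.146 with libraries centred and 0.185 with all 5 genotypes). PGRP-SD, a secreted recognition protein, was at 13.5 and 11.9 FPKM in y w against 41.1 and 34.0 FPKM in atf3[A]/+ (log2 difference 1.49, adjusted p = 0.00811). PGRP-SB1, a secreted amidase, was at 7.36 and 12.7 FPKM in y w against 2.64 and 1.90 FPKM in atf3[A]/+ (log2 difference -1.72, adjusted p = 0.00085).

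The PGRP-SC2 call held without any 1 library, in fits where a gene's own spread played no part. PGRP-SD lost its call without y w replicate 2 (1.40, adjusted p = 0.0776), without atf3[A]/+ replicate 1 (1.35, adjusted p = 0.501) and without atf3[A]/+ replicate 2 (1.62, adjusted p = 0.0522). PGRP-SB1 lost it without y w replicate 2 (-1.37, adjusted p = 0.0904) and without atf3[A]/+ replicate 2 (-1.56, adjusted p = 0.0697).

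The gut amidase genes PGRP-SC1a and PGRP-SC1b were far lower in atf3[76] than in atf3[A]/+ or y w. PGRP-SC1a was at 62.9 and 98.3 FPKM in y w, at 124 and 191 FPKM in atf3[A]/+, and at 9.78 and 3.50 FPKM in atf3[76]. PGRP-SC1b was at 49.6 and 82.9 FPKM in y w, at 96.7 and 148 FPKM in atf3[A]/+, and at 6.23 and 2.43 FPKM in atf3[76]. Against y w the log2 differences were 0.96 (adjusted p = 0.296) and 0.89 (adjusted p = 0.378). Against atf3[76] they were 4.48 (adjusted p = 0.253) and 4.60 (adjusted p = 0.168), which missed the threshold although every atf3[A]/+ library was above every atf3[76] library. PGRP-SC1a and PGRP-SC1b are close paralogs, so reads may be shared between them.

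**Figure D3:**
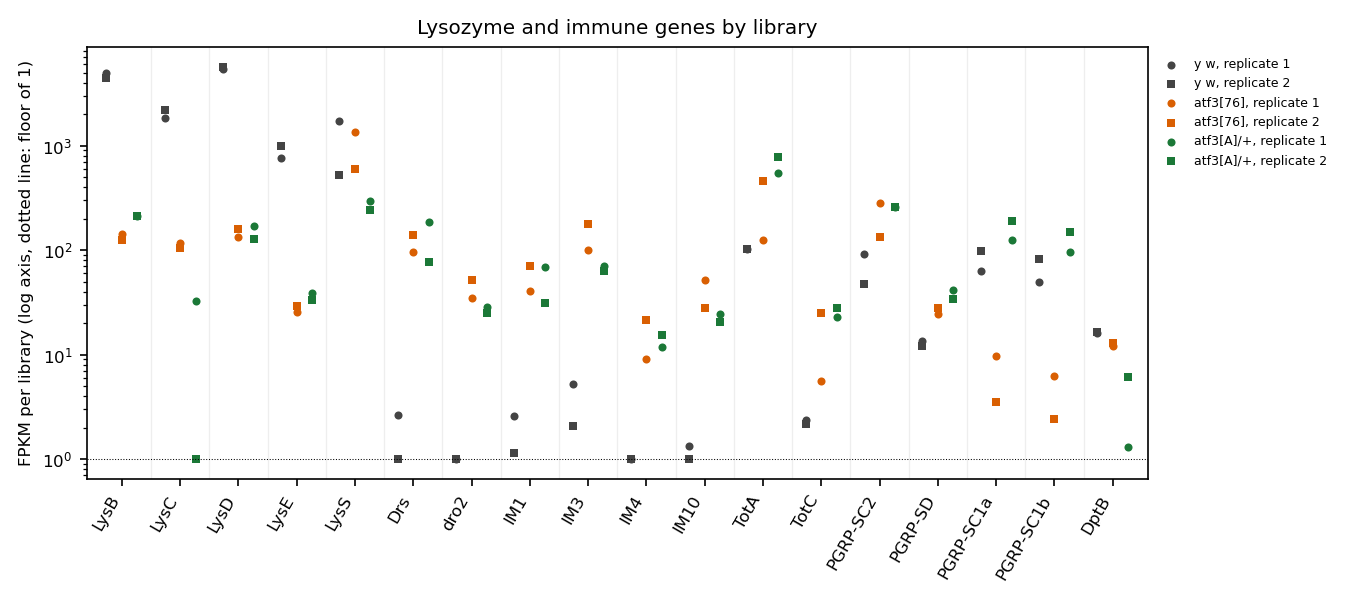
FPKM on a logarithmic axis for lysozyme, immune peptide, Turandot and PGRP genes, 1 point per library, with y w in grey, atf3[76] in orange and atf3[A]/+ in green, circles for replicate 1 and squares for replicate 2, and the floor of 1 dotted. LysB, LysD and LysE in atf3[A]/+ sit with atf3[76] and far below y w; IM1, IM3, Drs and dro2 in atf3[A]/+ sit with atf3[76] and above y w; PGRP-SC1a and PGRP-SC1b in atf3[A]/+ sit above both.

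Turandot genes, which encode humoral peptides released under stress, were higher. TotA was at 102 and 102 FPKM in y w against 545 and 778 FPKM in atf3[A]/+ (log2 difference 2.66, adjusted p = 2.05e-09, 0.106 with libraries centred and 0.111 with all 5 genotypes). TotC was at 2.35 and 2.17 FPKM in y w against 22.9 and 27.9 FPKM in atf3[A]/+ (log2 difference 3.01, adjusted p = 3.62e-12, 0.0348 with libraries centred and 0.0802 with all 5 genotypes). These were the 2 of 8 Turandot genes above the floor in all 4 libraries. Both calls held without any 1 library, in fits where a gene's own spread played no part. In atf3[76] the replicates spread widely, with 126 and 459 FPKM for TotA and 5.61 and 24.9 FPKM for TotC.

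Detoxification genes were lower where they passed. The list of cytochrome P450 genes, enzymes that oxidise hormones and foreign compounds, had 49 members above the floor, with 0 called higher and 4 lower, beside 0.911% of all genes called lower. Its median log2 difference of -0.20 was 0.03 without y w replicate 1 and -0.04 without atf3[A]/+ replicate 2. Cyp6a23 was at 143 and 129 FPKM in y w against 35.0 and 28.2 FPKM in atf3[A]/+ (log2 difference -2.07, adjusted p = 1.49e-05, 0.0396 with libraries centred and 0.023 with all 5 genotypes). Cyp6a2 was at 100 and 63.6 FPKM in y w against 13.0 and 15.9 FPKM in atf3[A]/+ (log2 difference -2.40, adjusted p = 1.7e-07). Cyp12d1-d was at 34.5 and 41.8 FPKM in y w against 9.83 and 2.40 FPKM in atf3[A]/+ (log2 difference -2.68, adjusted p = 1.54e-09). All 3 calls held without any 1 library, in fits where a gene's own spread played no part.

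Cyp6a8, at 46.4 and 45.6 FPKM in y w against 14.0 and 19.4 FPKM in atf3[A]/+ (log2 difference -1.43, adjusted p = 0.0131), lost its call without y w replicate 1 (-1.42, adjusted p = 0.0866), without y w replicate 2 (-1.44, adjusted p = 0.0666) and without atf3[A]/+ replicate 1 (-1.21, adjusted p = 0.789). The atf3[76] libraries lay above atf3[A]/+ and, apart from Cyp6a2 in replicate 1, below the y w range: Cyp6a23 was at 66.4 and 94.3 FPKM, Cyp6a2 at 83.9 and 35.6 FPKM, Cyp12d1-d at 12.1 and 19.7 FPKM and Cyp6a8 at 27.4 and 27.0 FPKM. None of the 4 passed in the direct contrast with atf3[76], where the adjusted p ranged from 0.274 to 0.628. In the P450 list 17 genes were lower without overlap and 8 higher, beside 19.9% and 16.0% of all genes.

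Glutathione transferase genes, whose products couple glutathione to reactive compounds, had 19 members above the floor. Of these, 0 were called higher and 4 lower, beside 0.955% and 0.911% of all genes. Their median log2 difference was -0.59, beside -0.03 over all 9108 genes. Without overlap, 14 were lower and 2 higher, beside 19.9% and 16.0% of all genes. The 4 called genes were neighbours in the GstD cluster on 3R. GstD4 was at 29.5 and 14.9 FPKM in y w against 4.10 and 5.07 FPKM in atf3[A]/+ (log2 difference -1.99, adjusted p = 4.66e-05). Its call held without any 1 library, in fits where a gene's own spread played no part. GstD2 was at 53.4 and 31.7 FPKM in y w against 10.7 and 13.0 FPKM in atf3[A]/+ (log2 difference -1.72, adjusted p = 0.000872). GstD7 was at 38.2 and 33.5 against 5.21 and 14.7 FPKM (-1.90, adjusted p = 0.000121), and GstD6 at 11.5 and 9.78 against 2.38 and 3.35 FPKM (-1.60, adjusted p = 0.00294).

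In all 4 GstD genes each atf3[A]/+ library was below each y w library, as in 19.9% of all genes above the floor. GstD2, GstD6 and GstD7 lost their calls without atf3[A]/+ replicate 1 (-1.60, -1.42 and -1.23, adjusted p = 0.172, 0.382 and 0.713). GstD2 and GstD6 lost them also without y w replicate 1 (-1.35 and -1.49, adjusted p = 0.12 and 0.0537). In atf3[76], GstD2 was at 37.0 and 36.3 FPKM and GstD4 at 14.0 and 19.1 FPKM, inside or just below the y w range, while the direct contrast of the 4 genes with atf3[76] did not pass (adjusted p from 0.213 to 0.588). No P450 or GstD call other than Cyp6a23 held with libraries centred.

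Digestive enzymes went in both directions. Among trypsin and chymotrypsin genes, 4 of 26 above the floor were called lower and 0 higher, beside 0.911% and 0.955% of all genes. The median log2 difference was -0.82. Without overlap, 18 genes were lower and 1 higher, beside 19.9% and 16.0% of all genes. The median was -0.19 without y w replicate 1 and -0.40 after quantile normalization. The gut proteases Jon99Fi and Jon99Fii were at 1846 and 686 FPKM and at 1932 and 589 FPKM in y w, against 389 and 372 FPKM and 331 and 361 FPKM in atf3[A]/+. Their log2 differences were -1.56 (adjusted p = 0.00427) and -1.62 (adjusted p = 0.00239), and without y w replicate 1, the library with the high values, -0.85 (adjusted p = 0.809) and -0.77 (adjusted p = 0.909).

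Jon44E was at 265 and 251 FPKM in y w against 88.8 and 108 FPKM in atf3[A]/+ (-1.39, adjusted p = 0.0193), with adjusted p from 0.0729 to 0.704 when any 1 library was left out. The trypsin gene epsilonTry was at 890 and 597 FPKM against 260 and 349 FPKM (-1.27, adjusted p = 0.0484), and it was -0.99 without y w replicate 1 (adjusted p = 0.578), -1.06 without atf3[A]/+ replicate 1 (adjusted p = 0.942) and -1.49 without atf3[A]/+ replicate 2 (adjusted p = 0.1). Jon99Fi was also -1.60 without atf3[A]/+ replicate 1 (adjusted p = 0.172) and -1.53 without atf3[A]/+ replicate 2 (adjusted p = 0.0818), and Jon99Fii -1.56 without atf3[A]/+ replicate 1 (adjusted p = 0.21). The summed FPKM of the list was 57412 and 23123 in y w against 18974 and 21881 in atf3[A]/+, so y w replicate 2 was near atf3[A]/+.

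Carbohydrate-digesting enzymes were called higher in 3 of 9 genes above the floor and lower in 0, beside 0.955% and 0.911% of all genes. Amylase-proximal, Amy-p, was at 111 and 7.71 FPKM in y w against 224 and 99.5 FPKM in atf3[A]/+, so the genotypes overlapped (log2 difference 2.27, adjusted p = 1.14e-06, and 0.43 without y w replicate 2, adjusted p = 0.812). Its near-identical copy Amy-d was at 111 and 8.17 FPKM against 240 and 108 FPKM (2.34, and 0.54 without y w replicate 2, adjusted p = 0.729). Amyrel was at 5.41 and 1.15 FPKM against 16.9 and 8.08 FPKM (1.78, adjusted p = 0.000476, and 0.99 without y w replicate 2, adjusted p = 0.312). All 3 missed the threshold without atf3[A]/+ replicate 1 (1.69, 1.77 and 1.29, adjusted p = 0.104, 0.0656 and 0.622). All 3 genes were lowest in y w replicate 2. The trehalase gene Treh, which completes the list's calls in the fit over all genes tested, belongs to the floor genes below.

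Cuticle genes showed 1 call higher and 5 lower among 19 above the floor, beside 0.955% and 0.911% of all genes. Their median log2 difference of -0.80 became 0.02 without atf3[A]/+ replicate 1. Lcp65Ag1, Lcp65Ag2 and Lcp65Ag3, near-identical larval cuticle genes, were low in atf3[A]/+ replicate 1 alone. Lcp65Ag1 was at 408 and 1498 FPKM in y w against 46.5 and 875 FPKM in atf3[A]/+, Lcp65Ag2 at 315 and 935 against 32.2 and 603 FPKM, and Lcp65Ag3 at 377 and 1096 against 42.6 and 689 FPKM. Their log2 differences of -1.94, -1.94 and -1.89 turned to 0.16, 0.15 and 0.10 without that library, so no direction is given for them. They missed the threshold without y w replicate 2 too (adjusted p = 0.307, 0.198 and 0.22).

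Lcp65Ab2 separated the genotypes, at 24.9 and 26.0 FPKM in y w against 7.64 and 7.40 FPKM in atf3[A]/+ (-1.64, adjusted p = 0.0021, 0.146 with libraries centred and 0.135 with all 5 genotypes). It lost the call without atf3[A]/+ replicate 1 (-1.66, adjusted p = 0.128) and without atf3[A]/+ replicate 2 (-1.61, adjusted p = 0.0528). Cpr67Fa1, a cuticle protein gene outside the list, was at 184 ± 44.1 FPKM (SD, n = 2) in y w and at 26.5 ± 18.3 FPKM (SD, n = 2) in atf3[A]/+ (-2.91, adjusted p = 2.1e-11, 0.261 with libraries centred and 0.0631 with all 5 genotypes). The summed FPKM of the cuticle list was 30500 and 29953 in y w against 20987 and 25068 in atf3[A]/+.

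Among the 4 libraries, the glue genes Sgs5, Sgs7 and Sgs8 and the fat body gene Fbp1 were highest in atf3[A]/+ replicate 1. Glue proteins fix the pupa to its support and are made late in the third instar. Sgs7 was at 464 and 236 FPKM in y w against 3199 and 869 FPKM in atf3[A]/+, Sgs5 at 228 and 94.2 against 1304 and 356 FPKM, and Sgs8 at 225 and 73.7 against 777 and 295 FPKM. Their log2 differences were 2.33, 2.21 and 1.89 (adjusted p = 4.75e-07, 2.37e-06 and 0.000138), 3 calls higher of 10 glue genes above the floor and 0 lower. In the list 4 genes were higher and 2 lower without overlap, beside 16.0% and 19.9% of all genes. Of all genes, 0.955% were called higher.

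Without atf3[A]/+ replicate 1 the glue differences were 1.39, 1.28 and 1.19 (adjusted p = 0.422, 0.643 and 0.816), and Sgs8 was at 1.09 without y w replicate 2 (adjusted p = 0.241). The glue list's median log2 difference of 1.06 became -0.31 without y w replicate 2, and its summed FPKM was 3153 and 1189 in y w against 6999 and 2704 in atf3[A]/+. Fbp1, the fat body receptor for larval serum proteins, was at 148 and 44.5 FPKM in y w against 865 and 156 FPKM in atf3[A]/+ (2.17, adjusted p = 4.47e-06). It fell short without atf3[A]/+ replicate 1 (0.94, adjusted p = 0.999) and without y w replicate 2 (1.31, adjusted p = 0.116). In whole larvae, more cells of a tissue, more RNA per cell and a later stage cannot be told apart.

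**Figure D4:**
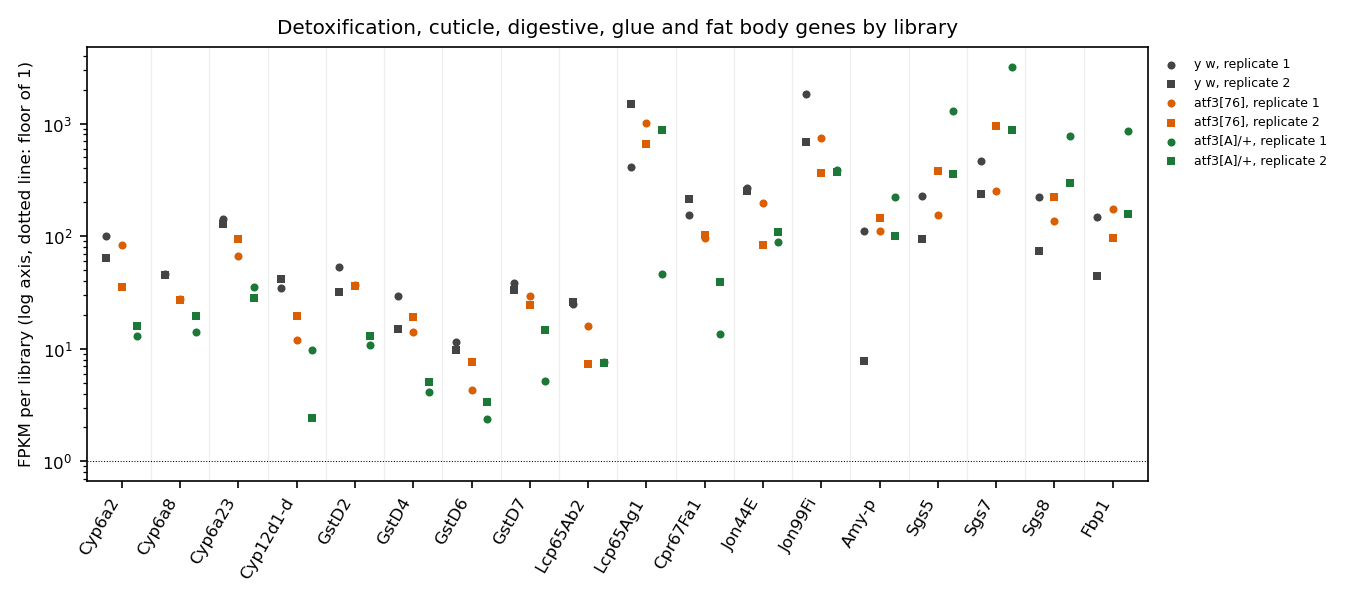
FPKM on a logarithmic axis for detoxification, cuticle, digestive, glue and fat body genes, 1 point per library, with y w in grey, atf3[76] in orange and atf3[A]/+ in green, circles for replicate 1 and squares for replicate 2, and the floor of 1 dotted. Cyp6a23, GstD4 and Lcp65Ab2 separate atf3[A]/+ from y w, while Lcp65Ag1 and Amy-p overlap between them. Sgs5, Sgs7 and Sgs8 do not overlap but spread widely within each genotype.

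Genes of energy metabolism did not pass singly. In the oxidative phosphorylation list, whose products form the respiratory chain, 0 of 25 genes above the floor were called, while 22 of 25 were lower without overlap, beside 19.9% of all genes, and the median log2 difference was -0.79. The list's summed FPKM was 3754 and 3760 in y w, 2146 and 2586 in atf3[A]/+, and 3051 and 2575 in atf3[76], so atf3[A]/+ was below both y w libraries. ATPsyn-beta, the catalytic subunit of ATP synthase, was at 421 and 619 FPKM in y w against 315 and 424 FPKM in atf3[A]/+ (-0.48, adjusted p = 0.88).

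Fatty acid oxidation genes were called in 0 of 13, with 8 lower without overlap, beside 19.9% of all genes. Their median of -0.30 was -0.17 without y w replicate 1 and -0.12 after quantile normalization. The acyl-CoA dehydrogenase gene CG3902 was at 193 and 144 FPKM in y w against 59.8 and 85.5 FPKM in atf3[A]/+ (-1.21, adjusted p = 0.0754). Glycolysis genes were called in 0 of 14, with a median of -0.22 that was -0.02 without y w replicate 1 and 0.02 after quantile normalization. Lipid synthesis and storage genes were called in 0 of 11 with a median of -0.18 that was 0.06 without y w replicate 1, where the desaturase gene desat1 was at 202 and 212 against 147 and 192 FPKM. Insulin signalling and FOXO target genes were called in 0 of 12 with a median of 0.35 that was 0.15 without y w replicate 2. Thor, the translation repressor 4E-BP and a FOXO target, was at 80.1 and 79.3 FPKM in y w against 144 and 82.8 FPKM in atf3[A]/+ (adjusted p = 0.893).

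Several other lists held no call above the floor. They were heat shock proteins (14 genes, median 0.12), ecdysone response (13 genes, 0.25), peritrophic and mucin genes (11 genes, -0.07) and DNA replication and cell cycle (22 genes, 0.17). With 1 library left out these medians ranged from -0.08 to 0.31, from 0.01 to 0.62, from -0.27 to 0.11 and from -0.09 to 0.46, and the mucin median was 0.12 after quantile normalization. No direction is given for these lists. The list of Atf3, AP-1 and JNK pathway genes held only Atf3 itself among 11, with a median of 0.20 that ranged from 0.09 to 0.36. Dopa decarboxylase, Ddc, from the pigment list, was at 3.26 and 2.61 FPKM in y w against 31.3 and 6.84 FPKM in atf3[A]/+ (2.02, adjusted p = 3e-05). Without atf3[A]/+ replicate 1 the Ddc difference was 1.00 (adjusted p = 0.999).

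Marker lists checked the labelled sex only in part. Of 12 female-specific genes, 11 were at 1 in all 4 libraries, and the exception, tra, is transcribed in both sexes. Most of the 12 are yolk and eggshell genes of adult females, so in larvae their floor does not tell the sexes apart. The male dosage compensation RNAs roX1 and roX2 were above the floor throughout, roX1 at 24.4 and 37.4 FPKM in y w against 70.0 and 52.8 FPKM in atf3[A]/+ (adjusted p = 0.261). No hemocyte (11 genes, median 0.25), muscle (12, -0.11), testis (22, -0.22), imaginal disc (5, 0.51), nervous system (4, 0.37) or Malpighian tubule (7, -0.24) marker was called above the floor. The fat body list of 8 genes, with a median of -0.19, held the call of Fbp1 alone. With 1 library left out the medians ranged from -0.02 to 0.42 for hemocytes, from -0.37 to 0.10 for muscle, from -0.50 to -0.003 for testis and from 0.22 to 0.75 for imaginal discs. They ranged from 0.24 to 0.50 for the nervous system, from -0.49 to 0.01 for Malpighian tubules and from -0.61 to 0.35 for the fat body. Quantile normalization turned the muscle median to 0.14 and the fat body median to 0.09.

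Among the genes with the largest differences and no list, CG3292 was at 2.50 and 5.07 FPKM in y w against 71.4 and 61.7 FPKM in atf3[A]/+ (log2 difference 3.87, adjusted p = 1.06e-20, 0.0396 with libraries centred and 0.0359 with all 5 genotypes). It was at 11.4 and 33.9 FPKM in atf3[76]. CG34227 was at 91.7 and 65.3 FPKM in y w against 1155 and 543 FPKM in atf3[A]/+ (3.34, adjusted p = 3.88e-15, 0.0348 with libraries centred and 0.0547 with all 5 genotypes). The lipase gene Lip3 was at 2.62 and 1.68 FPKM in y w against 18.0 and 14.3 FPKM in atf3[A]/+ (2.46, adjusted p = 7.15e-08, 0.0264 with libraries centred and 0.226 with all 5 genotypes), beside 62.7 and 11.7 FPKM in atf3[76].

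CG32071 was at 76.4 and 54.9 FPKM in y w against 9.31 and 6.52 FPKM in atf3[A]/+ (-2.90, adjusted p = 2.49e-11, 0.0204 with libraries centred and 0.0631 with all 5 genotypes). CG4783 was at 20.3 and 31.7 FPKM against 2.57 and 1.27 FPKM (-3.21, adjusted p = 5.75e-14), CG10562 was at 13.8 ± 0.981 against 2.11 ± 0.645 FPKM (-2.27, adjusted p = 1.14e-06), and CG3819 at 259 ± 28.5 against 57.2 ± 1.89 FPKM (-2.16, adjusted p = 4.97e-06; SD, n = 2). CG4783 and CG10562 passed with all 5 genotypes too (adjusted p = 0.0184 each) and not with libraries centred (0.0605 and 0.141). In these 7 genes the libraries of the genotypes lay apart.

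Other large differences came with a wide spread within 1 genotype. CG11854 was at 9.42 ± 6.87 FPKM in y w against 136 ± 136 FPKM in atf3[A]/+ (SD, n = 2; 3.40, adjusted p = 1.09e-15), and its adjusted p was 0.535 in the fit over all genes tested, which weighs each gene's own spread. CG9928 (2.99), CG42587 (2.64), CG5391 (2.65) and CG42460 (2.25) were called higher with adjusted p from 0.198 to 0.621 in that fit. CG13230 (-3.10), CG11350 (-2.98), Cpr47Eg (-2.44), CG30160 (-2.32) and CG13705 (-2.26) were called lower with adjusted p from 0.621 to 0.745 there.

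Without atf3[A]/+ replicate 1 the calls of CG5391 (1.28), CG42460 (1.47), CG13230 (-1.49), CG11350 (-1.41), Cpr47Eg (-0.42) and CG13705 (-1.15) were lost, with adjusted p from 0.284 to 0.999. CG30160, at 52.9 and 3.05 FPKM in y w against 1.81 and 2.13 FPKM in atf3[A]/+, lost its call without y w replicate 1 (-0.45, adjusted p = 1.0). Apart from Cpr47Eg, the genotypes did not overlap in these genes.

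Called genes were spread over the chromosome arms. The share of tested genes called above the floor was 1.76% on 2L, 2.41% on 2R, 2.15% on 3L, 1.81% on 3R, 1.89% on 4, where 1 of 53 genes was called, and 0.999% on X, beside 1.87% over all arms. The median log2 difference was 0.464 on 4 and between -0.055 and -0.003 on the other arms. Chromosome 4 also held 5 genes at 1 in both y w libraries and above 1 in both atf3[A]/+ libraries, and 0 of the reverse. All 5 were at 1 in atf3[76] replicate 1 too. Whether the shift of the median on 4 held without any 1 library was not tested. Runs of at least 3 called genes of 1 direction, with gaps of at most 20 kb, numbered 4. The runs called lower were LysB, LysD, LysE and LysS on 3L (1207370 to 1228238), 7 cuticle genes from Lcp65Ag3 to Cpr65Ay on 3L (6123484 to 6151730), 3 of which are the Lcp65Ag genes whose direction turned without atf3[A]/+ replicate 1, and GstD2, GstD4, GstD6 and GstD7 on 3R (8197692 to 8204977). The single run called higher was mthl4, mthl3 and CG10764 on 2R (13332687 to 13343234). Members of the lysozyme, cuticle and GstD runs are tandem paralogs, so their calls are not independent.

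Genes at the floor in both libraries of 1 genotype are given as counts and values, since the calls of such genes in the fit over all genes tested measure no fold. In all, 217 genes were at 1 in both y w libraries and above 1 in both atf3[A]/+ libraries, and 61 showed the reverse. At 5 FPKM or more in both libraries of the other genotype, 55 and 8 remained. The median of the lower atf3[A]/+ library among the 217 was 1.69 FPKM, so most of them were just above the floor. Small nucleolar RNAs, which guide the modification of ribosomal RNA, made up 13 of the 217 and 3 of the 61, and 92 and 23 genes overlapped another gene in position.

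The named floor genes included metabolic, mitochondrial and RNA-binding protein genes. Treh, the trehalase that splits the blood sugar trehalose, was listed at 1 in each y w library, against 29.8 and 27.9 FPKM in atf3[A]/+. The mitochondrial import receptor gene mge was at 33.1 and 30.3 FPKM in atf3[A]/+, the RNA-binding protein gene Hrb98DE at 34.3 and 31.2 FPKM, and the LIM domain gene Lmpt at 30.3 and 28.3 FPKM, each of them at the floor in y w. Hexo1, a hexosaminidase gene, was at 39.4 and 27.2 FPKM, and CG15012 at 46.9 and 30.0 FPKM, against 1 in y w. The hemocyte and basement membrane gene Pxn was at 18.8 and 14.3 FPKM against 1 in y w.

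The other genotypes show the same on-off pattern within replicates. Treh was at 1 FPKM in 1 atf3[76] library and at 22.7 FPKM in the other, and Hrb98DE at 1 and 38.3 FPKM. Of the 55 genes, 41 were at 1 in atf3[76] replicate 1 and 16 in replicate 2, 11 and 25 in the dfoxo[25J13] libraries, and 5 and 12 in the rel[E20] libraries. Only 2 were at 1 in all 6 other libraries, and 11 were above 1 in all 6. The 55 genes had a median span of 4897 bp, beside 2106.5 bp over the 9108 genes above the floor, and 30 of them overlapped another gene. For such genes only the listing at 1 is given, and no fold.

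The highest values among floor genes belonged to snoRNAs. The snoRNA Me28S-A982b was at 1615 and 529 FPKM in atf3[A]/+, Me28S-G3253 at 379 and 279 FPKM, Me28S-G2703a at 349 and 206 FPKM, and snoRNA:M at 72.0 and 106 FPKM, all listed at 1 in y w. At the lowest step, 1 fragment gave a snoRNA of 135 bp 12.2 FPKM in y w replicate 1 and 6.28 FPKM in atf3[A]/+ replicate 1, so snoRNA values rest on few fragments where they are low.

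In the reverse direction CG7381 was at 38.2 and 28.3 FPKM in y w against 1 in atf3[A]/+, snoRNA:Psi18S-640f at 18.0 and 18.7 FPKM, CG42306 at 18.0 and 14.1 FPKM, CG17352 at 11.6 and 9.43 FPKM and CG6686 at 8.86 and 7.48 FPKM. CG7381 was also at 1 in replicate 2 of each of the other 3 genotypes, while CG6686 was between 7.78 and 12.1 FPKM in all 6 other libraries. CG6686 was thus at the floor only in the atf3[A]/+ libraries.

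**Figure D5:**
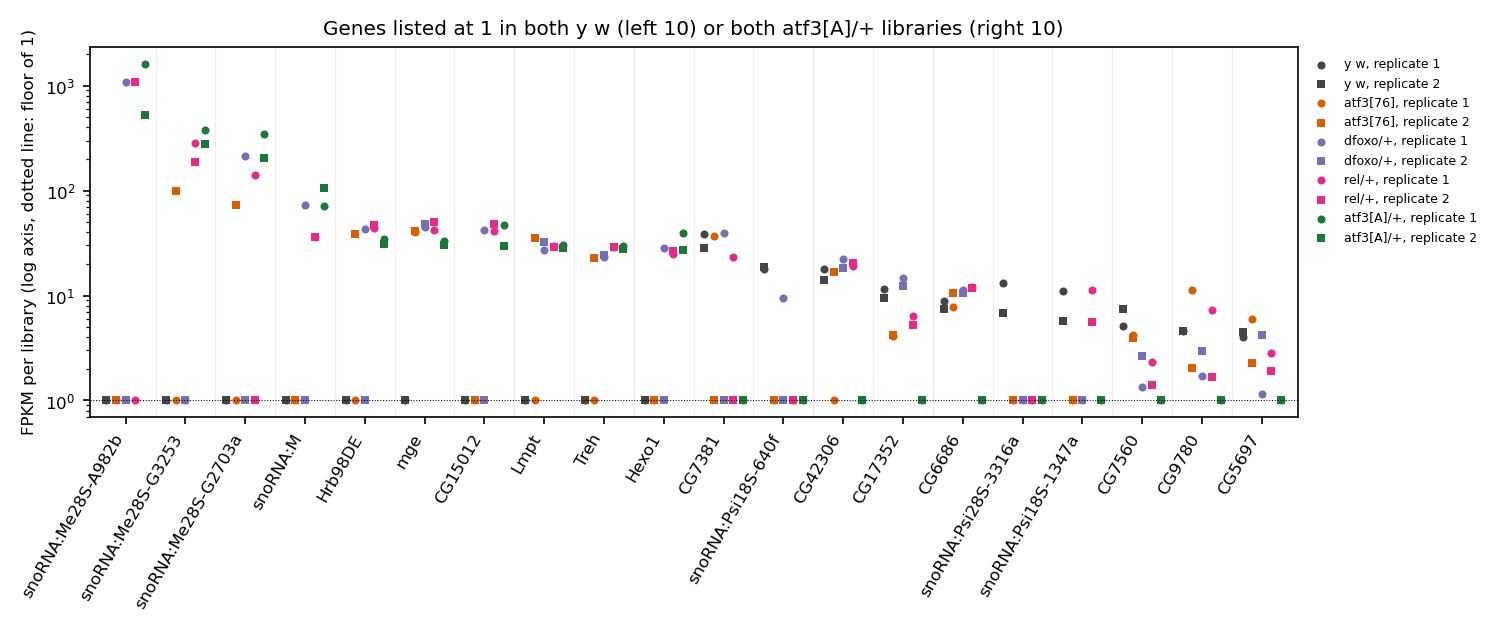
FPKM on a logarithmic axis for the 10 genes at 1 in both y w libraries (left) and the 10 at 1 in both atf3[A]/+ libraries (right) with the highest values in the other genotype, 1 point per library in all 5 genotypes, with the floor of 1 dotted. Several genes, such as Treh and Hrb98DE, switch between the floor and about the same level within a genotype, while CG6686 is at the floor in atf3[A]/+ alone.

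The direct contrast of atf3[A]/+ with atf3[76], which does not use y w as a reference, called 9 of 11558 genes (0.0779%), 6 higher and 3 lower. CG13324 was at 129 and 107 FPKM in y w, 531 and 392 FPKM in atf3[76], and 65.8 and 61.5 FPKM in atf3[A]/+ (log2 difference from atf3[76] -2.82 ± 0.20, adjusted p = 0.0051). CG5506 was at 87.1 and 89.5 FPKM in y w, 347 and 384 FPKM in atf3[76], and 95.8 and 104 FPKM in atf3[A]/+ (-1.86 ± 0.19, adjusted p = 0.0271). For both genes atf3[A]/+ stood near or below y w, and neither was called against y w (adjusted p = 0.399 and 0.977 above the floor). In the libraries with dfoxo[25J13] or rel[E20], CG13324 was between 274 and 327 FPKM and CG5506 between 316 and 479 FPKM.

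The other 7 genes of this contrast involved floor values. They were w, CG6686, Sdc, CG6838, CG14610 and the snoRNAs Me28S-U1230 and Psi18S-1086. Sdc, the syndecan gene, was at 20.8 and 21.0 FPKM in atf3[A]/+ and in rel[E20] at 21.0 and 17.7 FPKM, and at 1 in all other libraries. CG14610 was at 6.76 and 9.95 FPKM in atf3[A]/+ and at most 1.08 FPKM in the other 8 libraries. The count was 140 without atf3[76] replicate 2 and between 15 and 19 without any 1 of the other 3 libraries. In a fit of the 2 genotypes alone 4 genes passed, and 0 of them were among the 9 (adjusted p = 0.152 for CG13324 and 0.261 for CG5506). CG13324 kept its call without any 1 library of the 2 genotypes. CG5506 lost it without atf3[76] replicate 1 (-1.93, adjusted p = 0.0893), without atf3[A]/+ replicate 1 (-1.80, adjusted p = 0.169) and without atf3[A]/+ replicate 2 (-1.92, adjusted p = 0.125).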

How the data were processed

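Libraries were made from total RNA of whole male larvae and sequenced on an Illumina instrument, per the labels' protocols. The submitters' processing notes name Cufflinks 1.1.0, TopHat 1.3.2 and build dm3. What annotation, strand setting or filters were applied could not be read from the sources used here. FPKM values per library were deposited by the authors in tables of 14148 records, with a floor of 1, and a fold change column, which is a score of the authors' own comparison and was used only for their counts. Depth per library is not given. Of 94 symbols with several records the record with the highest mean was kept, and 1 record without a symbol was left out. Coordinates are those of the deposited tables. Of the 13994 genes, 5191 overlap another gene in position, which without stated strand makes their values uncertain. Of the genes named above, these are y, Rel, CG11854, Lip3, LysD, LysE, CG4783, Cyp6a2, Hrb98DE, mge, CG15012, Lmpt, Hexo1, CG42306, CG6686, LysS. They are also IM10, PGRP-SD, CG3902, epsilonTry, Lcp65Ab2, Ddc, Pxn, tra, LysC, LysP, AttB, AttC, Def, CG14610 and CG5506, and most of the snoRNAs. The 4 libraries shared no identical value above 1.

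Genotypes were compared in R 4.3.3 with limma 3.58.1, fitted to log2(FPKM + 1), a scale that understates changes of low genes, with Benjamini-Hochberg adjustment over all genes of each fit and a threshold of 0.05. One fit used genes above 1 in all 4 libraries, another genes above 1 in at least 1 of them, each on the 2 genotypes alone. The contrast with atf3[76] used all 5 genotypes. The genotypes compared and the 31 gene lists were chosen with earlier results of these data known. Named genes are Atf3, w, y, foxo and Rel, the 15 largest calls per direction with at least 5 FPKM, 10 floor genes per direction, up to 4 called members of each list or its 2 most abundant, and all lysozymes, antimicrobial peptides and PGRP-SC genes. The genes of the direct contrast, of runs along the chromosomes, and those that kept their call in other fits were named after their values were seen. The fit was also run on simulated data in which all genes shared the same spread. That run cannot show how the calls fare where spreads differ between genes.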

Additional observations from a re-analysis of the deposited data

How the results depend on the processing

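Among genes above the floor, 170 calls became 11 with libraries centred, 12 after quantile normalization, 10 with all 5 genotypes in 1 model and 25 with a replicate block, and lay between 42 and 166 with 1 library left out. Over all genes tested, 41 calls became 19 with a pseudocount of 5, 16 with no filter, 88 with a stricter filter of 5 FPKM in a group, 86 with a robust prior variance (chosen after seeing the data), 0 with a replicate block (1445 genes at an unadjusted p under 0.05, lowest adjusted p 0.0815) and 0 to 0 with 1 library left out. The block rests on a shared number only: deviations of same-numbered libraries correlated at 0.244 over 2 pairs, and the labels do not say that numbers pair samples. The 278 floor genes became 63 at 5 FPKM or more. The contrast with atf3[76] gave 9 calls, 9 with the block, 16 after quantile normalization, 4 with the 2 genotypes alone (0 of the 9 among them), 3 over genes above 1 in all 10 libraries (2 of the 9) and 15 to 140 with 1 library left out. The differences of Lcp65Ag1, Lcp65Ag2 and Lcp65Ag3 turned to 0.163, 0.15 and 0.1 without atf3[A]/+ replicate 1, and were -4.042, -4.035 and -3.885 without atf3[A]/+ replicate 2. Of 65 named genes, 19 kept their direction and side of the threshold with libraries centred and 11 with all 5 genotypes. The cause of these changes was not tested. Promoter motifs, planned as a description, were not run because no sequence was used here.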

Other observations

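In the authors' deposited table, 1044 records were called up and 907 down in atf3[A]/+ against y w, with 1.5 as the lowest fold change of a call. How the authors made those calls is not stated.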
